A study of Homo sapiens with 8 samples.

Results

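KYSE70, an established line of human esophageal squamous cell carcinoma, was sequenced without treatment (n = 3) and after exposure to pyrimethamine at 10 µM for 72 h (n = 2), and these groups are compared here across all measured genes. It uses 5 of the 8 libraries of the series. The other 3 libraries were of cells given 20 nM mitoxantrone for 72 h. They entered the estimate of the spread between replicates and the choice of tested genes. A gene was tested when its mean normalised read count over the 8 libraries was at least 10, which left 15350 of 28281 genes. Just inside that limit lay SLC19A3 (mean 10.01) and CES1P1 (mean 10.01), and just outside lay LOC105374937 (mean 9.998) and NPIPB4 (mean 9.999). All libraries come from the same cell line, and the labels name neither a vehicle control nor separate cultures; the p-values therefore reflect the spread among these libraries, possibly a technical one.

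The series title presents pyrimethamine as an inhibitor of NRF2. NRF2, encoded by NFE2L2, is a transcription factor that KEAP1 marks for degradation; when released, it pairs with small MAF proteins and drives genes for glutathione and thioredoxin chemistry, NADPH supply and the reduction of quinones and carbonyls. Squamous carcinomas of the esophagus often carry changes that keep NRF2 active, and their aldo-keto reductases and cystine transporter are then abundant. Pyrimethamine is otherwise known as an antifolate used against malaria and toxoplasmosis parasites, and it has been described as an inhibitor of STAT3 activity.

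Totals of 20702029, 24774358 and 18176269 reads were recovered for untreated replicates 1 to 3, and 23350504 and 19196482 for pyrimethamine replicates 1 and 2. The squamous markers TP63, SOX2, KRT5, KRT14, KRT6A and DSG3 were present in all 5 libraries; their summed normalised read count was 105980 to 112372 without treatment and 82061 and 70519 with pyrimethamine. Simple epithelial and glandular markers summed to 17605 to 18103 without treatment and 15826 and 17416 with pyrimethamine, most of it from KRT8 and KRT18. Of 17 members measured, 9 were under 10 in all 5 libraries, with TFF1 and VIL1 at 0. Fibroblast markers summed to 2839 to 2992 without treatment and to 5212 and 3881 with pyrimethamine. Leukocyte markers, of which CD3E, CD8A and MS4A1 were at 0, summed to 81.8 to 86.1 against 190 and 131. Endothelial markers summed to 97.4 to 105 against 398 and 201, most of it from VWF. The part of these markers in the results was not tested. As in any bulk sample, fewer cells of a type and less RNA per cell cannot be told apart.

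The 2 pyrimethamine libraries diverged, so both are given separately throughout, each as its log2 difference from the mean of the untreated libraries, on the scale of log2(normalised read count + 1). Over the tested genes this difference had an SD of 0.951 in replicate 1 and 0.898 in replicate 2, against 0.347 to 0.379 in the untreated libraries. At least 2-fold differences numbered 2179 higher and 2050 lower in replicate 1 and 1763 higher and 1620 lower in replicate 2; each untreated library had 209 to 237 higher and 165 to 277 lower. Replicate 1 had 22517 genes with at least 1 read and a size factor of 1.75. Replicate 2 had 20675 such genes and a size factor of 0.972. Untreated libraries had 19844 to 20490 such genes and size factors of 0.964 to 1.32. The 100 genes most abundant without treatment held 12.1% of reads in replicate 1 and 21.8% in replicate 2. In the untreated libraries they held 21.6% to 21.9%.

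**Figure D1:**
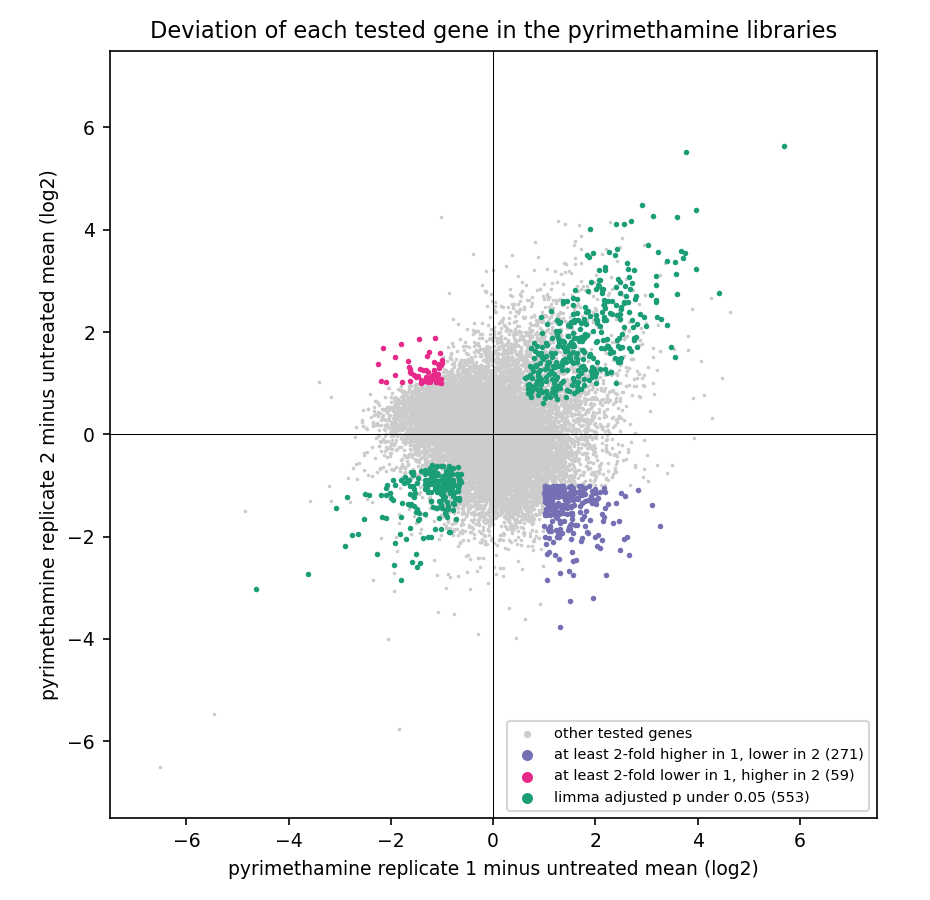
Log2 difference from the untreated mean of every tested gene in pyrimethamine replicate 1 (horizontal axis) and replicate 2 (vertical axis), with the 553 genes called by limma and the genes at least 2-fold from untreated cells in opposite directions coloured. At least 2-fold differences are more numerous at the upper right, with 683 genes, than at the lower left, with 133. The filter on low values admits genes through a treated group in which they are high. At the lower right lie 271 genes, higher in replicate 1 and lower in replicate 2.

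Counting genes that also lay outside the range of the untreated libraries, 683 (4.45% of those tested) were at least 2-fold higher in both pyrimethamine libraries and 133 (0.866%) at least 2-fold lower in both. A further 271 (1.77%) were at least 2-fold higher in replicate 1 and lower in replicate 2, and 59 (0.384%) the reverse, which makes 330 genes (2.15%) with opposite differences. The genes higher in both were mostly weakly expressed, with a median untreated level of 9.68 normalised reads against 338 over all tested genes. Because the filter averages all 8 libraries, a gene under 10 without treatment passed it only through a treated group. The part of the filter in this low median and in the excess of genes higher in both was not tested. With a mean of at least 50 required, 258 genes were higher in both and 80 lower in both. With no filter on low values, 1557 were higher in both and 308 lower in both. The genes lower in both had a median untreated level of 164.

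The libraries separated by transcript length. The 1394 shortest genes, of median length 1028 bases, had a median log2 difference of -0.65 in replicate 1 and 0.55 in replicate 2. The 1393 longest, of median length 9484 bases, had medians of 0.44 and -0.54. In the untreated libraries both groups stayed within -0.04 to 0.04. Across 13927 genes with a known length, Spearman's rho between length and the log2 difference was 0.327 in replicate 1 and -0.381 in replicate 2; genes of the same library share its depth and are not independent replicates. Removing this trend moved 54 of 70 list medians by more than the spread of the untreated libraries; for the list medians printed below, the value without the trend is given where it changed sign or moved by over 1.5 times.

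**Figure D2:**
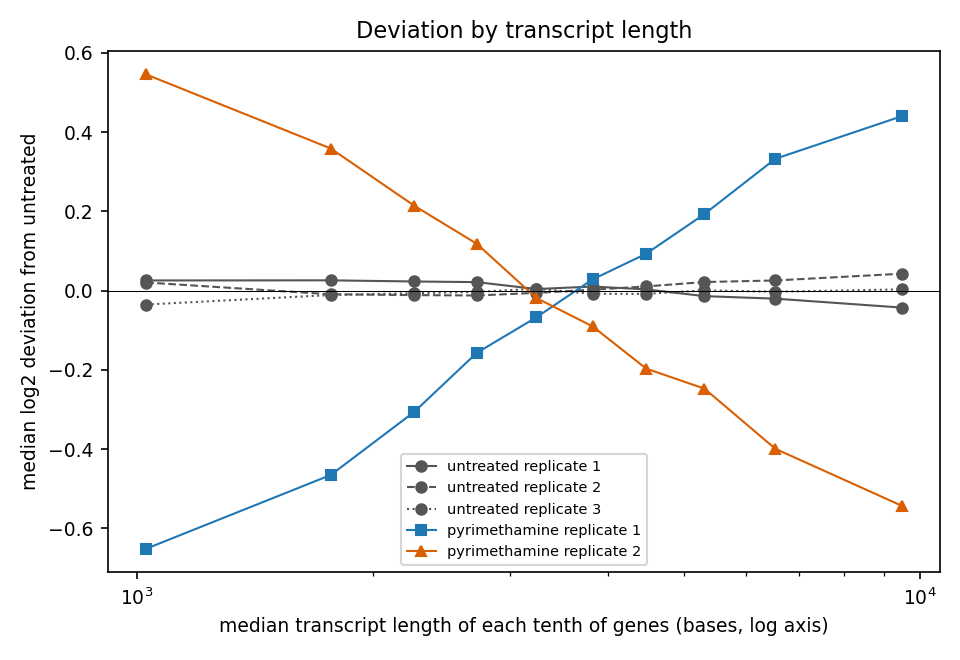
Median log2 difference from the untreated mean (vertical axis) in equal groups of the tested genes ordered by transcript length in bases (horizontal axis, log scale), a line for each library. Pyrimethamine replicate 1 climbs from -0.65 to 0.44 and replicate 2 descends from 0.55 to -0.54, while the untreated lines stay near 0.

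With limma on all 8 libraries, which share 1 estimate of the spread for each gene, 553 genes (3.6% of those tested) passed a Benjamini-Hochberg adjusted p of 0.05: 352 (2.29%) rose with pyrimethamine and 201 (1.31%) fell. Of the genes that rose, 227 had an untreated mean under 100 normalised reads and 272 were at least 2-fold higher in both libraries. Of those that fell, 13 had so low a mean and 75 were at least 2-fold lower in both; their median untreated level was 996. Upper-quartile scaling gave 501 higher and 139 lower genes and quantile normalisation 223 and 99. The calls changed with the libraries in the fit: 9, 10 and 11 of the 553 were kept without untreated replicate 1, 2 or 3, and 83, 61 and 142 without mitoxantrone replicate 1, 2 or 3. Without pyrimethamine replicate 1 or 2, 553 and 552 were kept among 7276 and 7571 calls, the remaining treated library being assumed to vary like the other groups. The cause of these shifts was not tested. A fit on the 5 libraries alone called 0 genes, although 2077 had an unadjusted p below 0.05. From the recovered reads edgeR called 483 genes higher (3.15%) and 187 lower (1.22%), and DESeq2 1037 higher (6.76%) and 701 lower (4.57%). The verbs rose and fell are used below for genes past the threshold in the fit on 8 libraries.

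Held without any single untreated library were 8 calls, on ADGRF4, CRABP1, DAPP1, HDAC9, LIPH, OLR1, ZBED2 and ZFX. LIPH on chromosome 3 (185506262 to 185552613, minus strand, GRCh38), a lipase that makes lysophosphatidic acid, measured 23.0, 27.4 and 19.7 normalised reads without treatment and 306 and 287 with pyrimethamine. Its groups were far apart and both treated libraries close together, for a log2 fold change of 3.62 ± 0.22 (SE; adjusted p = 0.00221). ZBED2, a zinc finger transcription factor, stood at 176, 215 and 194 against 970 and 989, and rose by 2.33 ± 0.16 on the log2 scale (adjusted p = 0.00314). OLR1, a scavenger receptor for oxidised lipoproteins, lay at 46.9, 41.0 and 40.4 against 194 and 252 (2.35 ± 0.20, adjusted p = 0.00491). Neither gene's groups overlapped. HDAC9, a class IIa histone deacetylase, was measured at 191, 191 and 195 against 748 and 786. DAPP1, a signalling adaptor, was at 11.03, 10.64 and 10.37 against 75.9 and 89.5. ADGRF4, an adhesion G protein-coupled receptor, was almost unread without treatment, at 0.919, 0.760 and 2.07, and reached 111 and 107. CRABP1, which binds retinoic acid, likewise went from 1.84, 3.04 and 1.04 to 44.0 and 58.6. ZFX was the single gene of the 8 that fell. This X-linked zinc finger transcription factor was at 2856, 2800 and 2952 without treatment and at 815 and 740 with pyrimethamine, a log2 fold change of -1.88 ± 0.16 (adjusted p = 0.00491). Reads of its Y-linked paralog could be counted with it.

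The other genes with the highest fold changes, among called genes with a mean of at least 100 over the 5 libraries, came from several functions. FOSB, a subunit of the AP-1 transcription factor, was at 30.3, 31.9 and 62.2 without treatment and 343 and 266 with pyrimethamine (2.91 ± 0.38, adjusted p = 0.0127). SAA1, an acute phase protein with a close paralog, was at 59.7, 66.9 and 57.0 against 296 and 732 (2.91 ± 0.33, adjusted p = 0.0115). ANGPTL4, an inhibitor of lipoprotein lipase, was at 26.7, 35.7 and 41.5 against 316 and 210. All treated values of these genes lay above all untreated ones, with FOSB and ANGPTL4 higher in replicate 1 and SAA1 in replicate 2. ANKRD1, a muscle ankyrin repeat protein and common target of YAP, was the most abundant of the set at 1278, 1436 and 1422 against 9284 and 5056 (2.31 ± 0.26, adjusted p = 0.0115). NLRP1, the inflammasome sensor of keratinocytes, was uneven, at 51.5, 47.1 and 41.5 against 560 and 135 (2.54 ± 0.56, adjusted p = 0.0491). MAP6, which stabilises microtubules, was as uneven at 24.8, 41.0 and 34.2 against 375 and 109. KLHL6, PADI2 (a peptidylarginine deiminase) and HKDC1 (a hexokinase domain protein) had log2 fold changes of 2.62, 2.48 and 2.30 and were also above every untreated library in both replicates.

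**Figure D3:**
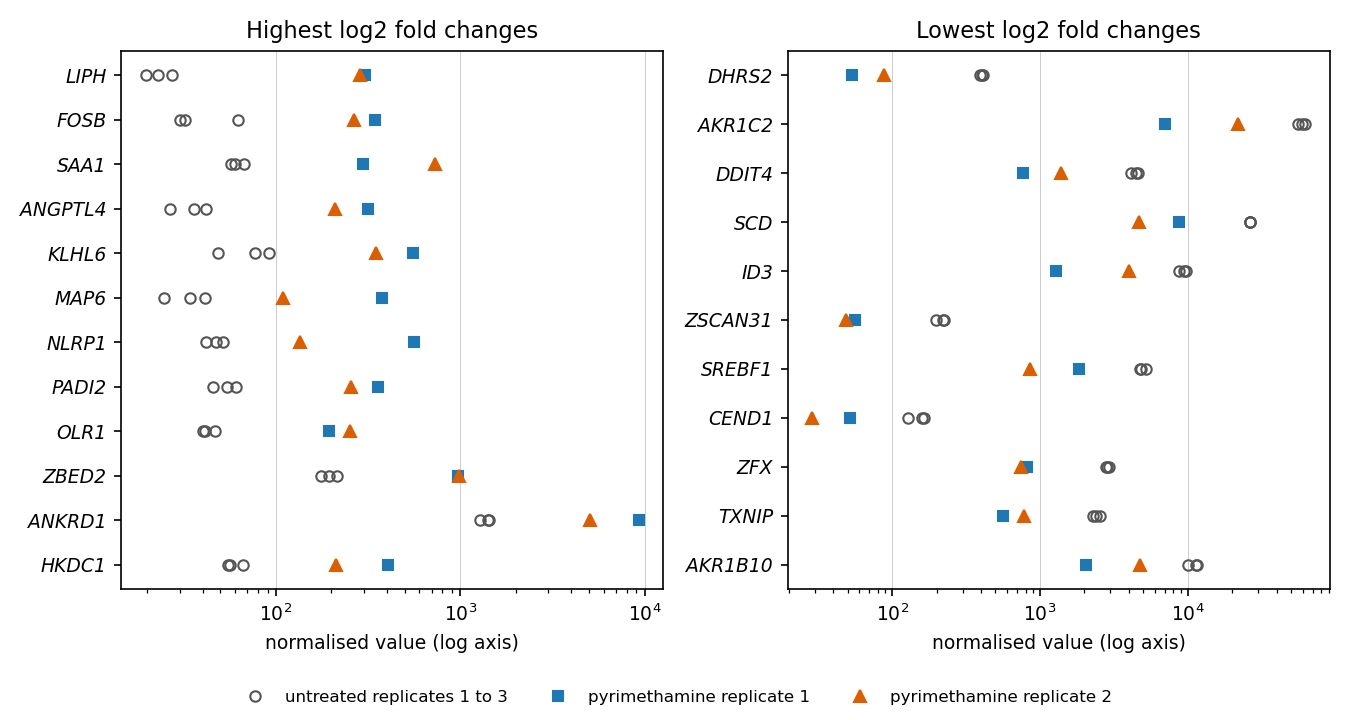
Normalised read count (horizontal axis, log scale) of the 12 genes with the highest fold changes and 11 of the 12 with the lowest among called genes with a mean of at least 100 over the 5 libraries, 1 marker for each library. In every gene shown both pyrimethamine markers lie on the same side of the 3 untreated markers and apart from them.

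Among the lowest fold changes, DHRS2, a short-chain dehydrogenase, was at 403, 396 and 412 without treatment and 53.1 and 88.5 with pyrimethamine (-2.54 ± 0.30, adjusted p = 0.0115). DDIT4, an inhibitor of mTORC1, was at 4446, 4596 and 4156 against 766 and 1392 (-2.09 ± 0.26, adjusted p = 0.0119). TXNIP, which restrains thioredoxin and glucose uptake, was at 2545, 2291 and 2413 against 566 and 781 (-1.86 ± 0.18, adjusted p = 0.009). None of these overlapped between groups, and replicate 1 was the lower of the treated libraries in each. The zinc finger gene ZSCAN31 had a log2 fold change of -2.02 ± 0.39, and CEND1, a protein of neuronal cell cycle exit, of -1.93 ± 0.42 (adjusted p = 0.0488, and 0.0509 by edgeR). Others of the 12 lowest, AKR1C2, AKR1B10, SCD, SREBF1 and ID3, are described with their pathways.

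NRF2 targets were lower with pyrimethamine: among 50 tested genes 7 fell and 0 rose (background over all tested genes, 1.31% and 2.29%). The median log2 difference was -1.02 in replicate 1 and -0.43 in replicate 2, against -0.02 and 0.02 over all tested genes. With the length trend removed it was -0.72 and -0.50, and quantile normalisation gave -0.51 in replicate 1. Several members were highly expressed, FTH1 at an untreated mean of 94867 and AKR1C2 at 59032. In replicate 1 the most abundant untreated genes held a smaller share of reads, as given above. The part of that shift in the list's median was not tested. In both libraries 29 of the 50 lay below every untreated library, a pattern that 16.9% of all tested genes showed, and 1 lay above. DESeq2 called 23 of the 50 lower (4.57% of all tested genes). Without untreated replicate 1, 2 or 3 each time 0 of the 7 calls was kept, and without mitoxantrone replicate 1, 2 or 3, it was 1, 0 and 3.

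Of 10 tested regulators of NRF2 activity, 1 rose and 0 fell (background, 2.29% and 1.31%). NFE2L2 was at 1416, 1400 and 1329 without treatment and at 1188 and 869 with pyrimethamine, below every untreated library but short of the threshold (-0.44 ± 0.18, adjusted p = 0.216). KEAP1 was at 2686, 2539 and 2440 against 2266 and 2558, with overlapping groups and a sign that reversed under upper-quartile scaling and quantile normalisation. MAFF, a small MAF protein, rose from 146, 154 and 154 to 597 and 366 (1.62 ± 0.22, adjusted p = 0.0148), a call that 0 fits without an untreated library kept; MAFG and MAFK did not pass.

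In the aldo-keto reductases, which reduce aldehydes, ketones and steroids, the differences were the largest of the NRF2 subgroups, with a median of -2.71 in replicate 1 and -1.10 in replicate 2. AKR1C2, on chromosome 10 (4987400 to 5018031, minus strand, GRCh38), was at 62331, 55482 and 59283 without treatment and 7011 and 21824 with pyrimethamine (-2.25 ± 0.45, adjusted p = 0.0381). AKR1B10, on chromosome 7 (134527592 to 134541408, plus strand), was at 11461, 10002 and 11519 against 2042 and 4789 (-1.81 ± 0.33, adjusted p = 0.0282). In both genes replicate 1 was lower by more than 2-fold than replicate 2, and both replicates were clear of the untreated libraries. AKR1B15 fell from a mean of 79.6 to 10.8 and 19.5. AKR1C1 and AKR1C3 were also below every untreated library, at adjusted p of 0.0746 and 0.0659. These genes are near-identical in sequence within the AKR1C and the AKR1B groups, so the share of reads each received is uncertain. AKR1B1, aldose reductase, was at 3151 in replicate 1 and 8195 in replicate 2, on either side of its untreated mean of 6067.

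For glutathione synthesis and cystine import, SLC7A11, the cystine-glutamate exchanger, was at 4252, 4376 and 4141 without treatment and at 2124 and 1558 with pyrimethamine, and fell by 1.23 ± 0.18 on the log2 scale (adjusted p = 0.017). GCLC, the catalytic subunit of the rate-limiting enzyme of glutathione synthesis, was at 5944, 5786 and 5971 against 3763 and 2317 (adjusted p = 0.0552). GCLM, its modifier subunit, was at 3096, 2931 and 3047 against 1969 and 2295 (adjusted p = 0.122). Each was below its untreated range in both libraries, and of the 3 SLC7A11 alone passed. In the thioredoxin system SRXN1, which repairs oxidised peroxiredoxins, fell from 11340, 11122 and 10998 to 3782 and 5498 (-1.29 ± 0.21, adjusted p = 0.0213). TXNRD1, thioredoxin reductase, was at 24500, 23203 and 23872 against 11598 and 17227, below in both and not called (adjusted p = 0.18). TXN and PRDX1 were lower in replicate 1 only, at -1.89 and -1.49, and above the untreated mean in replicate 2, at 0.49 and 0.13.

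Genes of NADPH supply had medians of -1.18, or -0.69 after quantile normalisation, and -0.62. TKT, transketolase of the pentose phosphate pathway, was even between the treated libraries, at 20407, 19779 and 20015 against 8612 and 8077 (-1.27 ± 0.20, adjusted p = 0.0207). PGD and ME1, each an NADPH-producing dehydrogenase, lay below the untreated range in both libraries at adjusted p of 0.0695 and 0.0566. OSGIN1, an NRF2 target linked to growth arrest, fell from 2015, 2054 and 2162 to 951 and 762 (-1.29 ± 0.19, adjusted p = 0.0168). NQO1, the quinone reductase most used as a readout of NRF2, divided the libraries: it was at 24090, 22699 and 23127 without treatment, 7526 in replicate 1 and 24546 in replicate 2 (adjusted p = 0.41). Replicate 1 was far below and replicate 2 above every untreated library, so the sign of its mean difference depended on replicate 1. HMOX1, heme oxygenase, was at 1879, 1808 and 1874 against 1404 and 1783. The ferritin chains FTL and FTH1, which have many pseudogene copies, lay lower by 1.66 and 1.09 in replicate 1 and by 0.15 and 0.38 in replicate 2. Of the 4 tested exporters, ABCC2, ABCC3 and ABCC5 had log2 differences of 1.09, 1.11 and 1.04 in replicate 1 and 0.07, 0.14 and -0.05 in replicate 2, while ABCC1 was at -0.06 and -1.65; none passed. The glutathione transferase gene GSTM3 and the biliverdin reductase gene BLVRB lay lower in replicate 1, at -0.80 and -0.79, and higher in replicate 2, at 1.27 and 1.13.

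**Figure D4:**
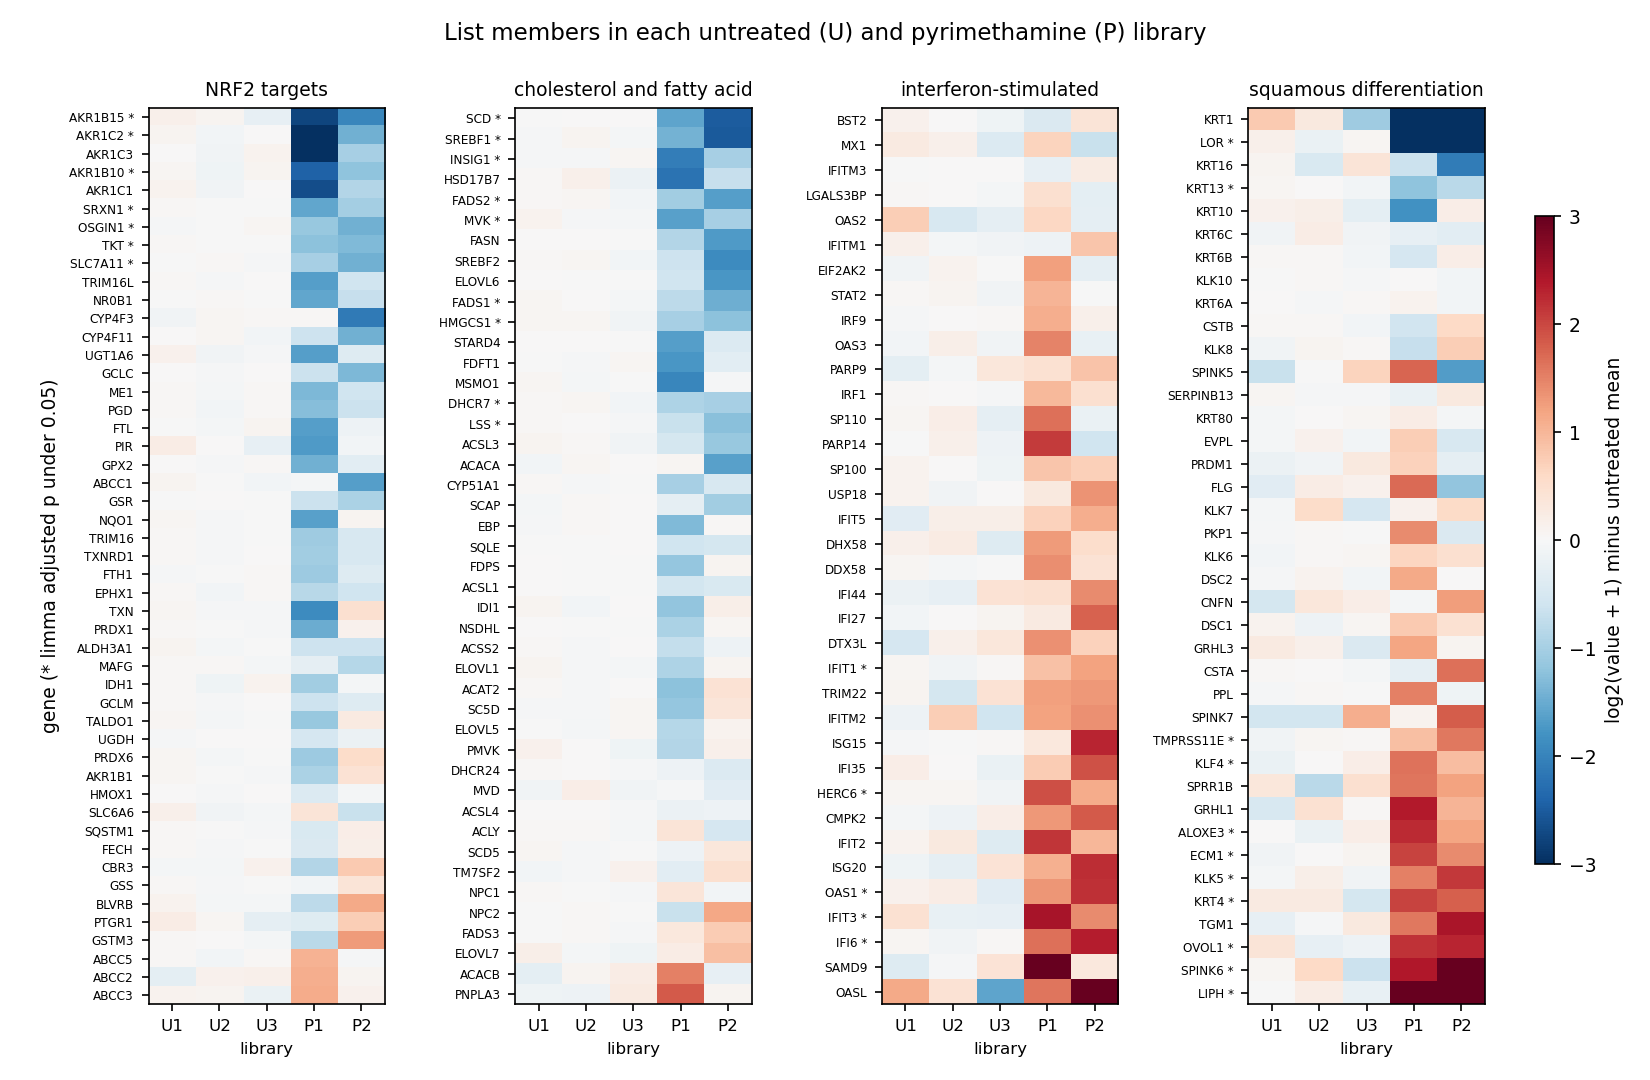
Log2 difference from the untreated mean (colour, saturating at 3 log2 units) of tested members of 4 gene lists in the 3 untreated and 2 pyrimethamine libraries, an asterisk marking called genes. NRF2 targets and lipid genes are mostly lower and interferon-stimulated genes mostly higher in the pyrimethamine columns, and both columns differ from each other in many rows.

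In the folate cycle, the pathway that antifolates act on, 1 of 24 tested genes fell and 0 rose (background, 1.31% and 2.29%). It was MTHFD1L, the mitochondrial formate-producing enzyme, at 1307, 1197 and 1247 without treatment and 628 and 678 with pyrimethamine (-0.94 ± 0.15, adjusted p = 0.0207); no fit without an untreated library kept the call. TYMS, thymidylate synthase, was at 56717, 54607 and 54246 against 31935 in replicate 1 and 70829 in replicate 2. The treated libraries fell on either side of the untreated ones, and the same held for MTHFD2, at 8149, 7898 and 8050 against 6556 and 12922. SHMT2, the mitochondrial serine hydroxymethyltransferase, was at 4285 and 6759 against 6788 to 7078 (adjusted p = 0.458). SLC19A1, the reduced folate carrier, was at 795, 861 and 757 against 828 and 534. The list's median was -0.44 in replicate 1, where upper-quartile scaling gave -0.26 and quantile normalisation -0.050, and 0.03 in replicate 2, negative under TMM scaling and quantile normalisation and 0.0090 without the length trend.

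Cholesterol genes were lower in both libraries: 5 of 28 tested fell and 0 rose (background, 1.31% and 2.29%), with medians of -0.94 and -0.41. In both libraries 15 lay below the untreated range against 0 above (16.9% and 15.8% of all tested genes). SREBP transcription factors drive these genes when sterols are low, and INSIG1 holds the SREBPs back. HMGCS1, which makes the precursor of mevalonate, was at 4296, 4303 and 3870 without treatment and at 2093 and 1758 with pyrimethamine (-1.11 ± 0.17, adjusted p = 0.0172). MVK, mevalonate kinase, was at 1065, 971 and 953 against 323 and 496 (-1.31 ± 0.22, adjusted p = 0.0216). DHCR7, at the last step of the pathway, was at 3234, 3307 and 2967 against 1655 and 1579 (-0.97 ± 0.16, adjusted p = 0.0208). Both treated libraries were near each other in HMGCS1 and DHCR7. LSS, lanosterol synthase, fell by 0.95 ± 0.20 on the log2 scale (adjusted p = 0.0445) and INSIG1 from 2166, 2182 and 2318 to 527 and 1120 (-1.53 ± 0.28, adjusted p = 0.0301). SREBF2, which encodes the SREBP of cholesterol synthesis, was lower by 0.62 in replicate 1 and by 1.88 in replicate 2 on the log2 scale and was not called. Of the 5 calls, edgeR made 4, and 0 were kept without any of the untreated libraries in turn.

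Of 19 tested genes of fatty acid synthesis, 4 fell and 0 rose (background, 1.31% and 2.29%). The list's medians were -0.55, or -0.30 after quantile normalisation, and -0.46. SREBF1, which encodes the SREBP of fatty acid synthesis, on chromosome 17 (17810399 to 17837002, minus strand, GRCh38), was at 4818, 5192 and 4732 without treatment and 1831 and 856 with pyrimethamine (-1.97 ± 0.33, adjusted p = 0.0223). SCD, the desaturase that makes oleate, was at 26284, 26465 and 26555 against 8777 and 4684 (-2.04 ± 0.28, adjusted p = 0.0148). FADS2 and FADS1, the desaturases of polyunsaturated fatty acids, fell by 1.35 ± 0.20 and 1.13 ± 0.22 on the log2 scale (adjusted p = 0.0182 and 0.0344; edgeR gave 0.026 and 0.0527). All 4 were lower in replicate 2 than in replicate 1, the reverse of the aldo-keto reductases. FASN, fatty acid synthase, was at a mean of 9157 without treatment and at 4984 and 2810 with pyrimethamine (adjusted p = 0.0787). FADS3 and ELOVL7, of the desaturase and elongase families, lay above the untreated range in both libraries, at log2 fold changes of 0.54 and 0.57, not called. None of the 4 calls was kept in a fit that left out an untreated library.

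In the ATF4 and amino acid list, 2 of 29 tested genes rose and 4 fell (background, 2.29% and 1.31%). The list's medians were near 0, at -0.18 in replicate 1, positive under quantile normalisation, and -0.15 in replicate 2. Medians of the transporters were -0.66 in replicate 1, positive under quantile normalisation, and -0.78 in replicate 2, or -0.46 without the length trend. SLC1A5, the glutamine carrier, was at a mean of 8263 against 4534 and 4800 (-0.82 ± 0.18, adjusted p = 0.0448). SLC3A2, the heavy chain that SLC7A5 and SLC7A11 share, was at 21785 against 11622 and 10598 (adjusted p = 0.0526). ALDH18A1 of proline synthesis fell from 4427, 4347 and 4388 to 2361 and 2595. NUPR1 and ATF3, transcriptional regulators induced by stress, rose by 1.33 ± 0.21 and 1.21 ± 0.26 on the log2 scale. ATF4 itself was at 7218 without treatment and at 6183 and 7806 with pyrimethamine, and DDIT3 was at 273 against 267 and 309. No call of this list was kept without an untreated library.

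Interferon-stimulated genes are switched on by a complex with STAT2 and IRF9, which binds a repeated GAAA element in their promoters. Of 48 members 37 passed the filter on low values, which can admit a gene through a treated group in which it is high. Of these 37 tested, 5 rose and 0 fell (background, 2.29% and 1.31%). In both treated libraries 25 lay above every untreated one, against 0 below, and 15.8% of all tested genes lay above in both. The medians were 1.08 in replicate 1 and 0.84 in replicate 2. DESeq2 called 16 and edgeR 8, all higher (6.76% and 3.15% of all tested genes). Of the 5 limma calls 0 was kept without untreated replicate 1, 2 or 3. IFI6, a mitochondrial antiviral protein, was at 59.7, 53.2 and 59.1 without treatment and at 182 and 299 with pyrimethamine (2.01 ± 0.24, adjusted p = 0.0115). IFIT1 and IFIT3, which bind foreign RNA as a complex, were at 170, 153 and 168 against 300 and 381 (1.04 ± 0.19, adjusted p = 0.0305) and at a mean of 32.8 against 183 and 86.4 (1.94 ± 0.39, adjusted p = 0.0374). OAS1, which senses double-stranded RNA, was at 60.7, 64.6 and 43.5 against 139 and 258 (1.76 ± 0.31, adjusted p = 0.0268). HERC6, a ubiquitin ligase, was at 87.3, 87.4 and 78.8 against 324 and 184 (1.52 ± 0.27, adjusted p = 0.0261). Groups were separate in each of these genes, with IFIT3 and HERC6 higher in replicate 1 and IFI6, IFIT1 and OAS1 in replicate 2. The size of the difference varied between the treated libraries in SAMD9, at 17.5 against 351 and 21.6, and in ISG15, at 106 against 131 and 514. MX1, a classical marker, was at 34.2 against 53.7 and 20.6.

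The promoters of IFI6 and IFIT1, the called members with the smallest p that hold the interferon motif, are shown because these genes moved together. The motif was GAAA, any 2 bases (NN) and GAAA again, on either strand. It was found in 18 of the list's 28 promoters with a sequence at hand (64.3%), and in 3 of the 5 called members. The share was 3.65% of all 27305 RefSeq promoters of the same 300 bases and 2.75% of those of tested genes. All matches are descriptions of letters. The 250 bases before each start are printed 5′ to 3′ along the gene's strand, from RefSeq on GRCh38.p14, with the motif in capitals. IFI6 lies at chr1:27672193-27672442 on the minus strand, with matches beginning 156, 115 and 93 bases before the start. IFIT1 lies at chr10:89392373-89392622 on the plus strand, with matches on the opposite strand beginning 116 and 103 bases before the start.
IFI6: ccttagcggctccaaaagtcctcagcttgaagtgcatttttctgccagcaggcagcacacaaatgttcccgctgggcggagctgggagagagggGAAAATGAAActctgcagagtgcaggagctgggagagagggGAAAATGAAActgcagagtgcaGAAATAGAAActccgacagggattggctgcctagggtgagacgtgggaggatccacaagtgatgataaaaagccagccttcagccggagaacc
IFIT1: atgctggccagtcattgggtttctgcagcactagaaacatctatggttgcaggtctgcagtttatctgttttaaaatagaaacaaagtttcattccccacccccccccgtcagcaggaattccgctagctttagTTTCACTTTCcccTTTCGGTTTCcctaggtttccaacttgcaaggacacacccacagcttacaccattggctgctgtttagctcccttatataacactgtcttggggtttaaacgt

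Antigen presentation through MHC class I, which interferons raise, had 3 of 19 tested genes that rose and 0 that fell (background, 2.29% and 1.31%). HLA-B was at 39.5, 44.1 and 49.8 without treatment and 168 and 134 with pyrimethamine (1.74 ± 0.23, adjusted p = 0.0138), and HLA-E at 2231, 2285 and 2099 against 3535 and 4302 (0.82 ± 0.18, adjusted p = 0.0486). CD274, the checkpoint ligand PD-L1, was at 33.09, 60.02 and 32.14 against 106 and 143 (1.60 ± 0.32, adjusted p = 0.0379). HLA-C lay above the untreated range in both libraries at an adjusted p of 0.0531. Reads of HLA genes can be divided among paralogs. B2M, the common light chain, was at a mean of 6278 against 5836 in replicate 1 and 19466 in replicate 2, so that replicate 2 alone was higher. None of the 3 calls was kept in fits without an untreated library. Among 6 tested receptor genes of interferon 0 passed by limma or edgeR; IFNGR2 was at 1191, 1302 and 1296 against 1602 and 2805 (adjusted p = 0.127).

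NF-kB targets and cytokines had 6 of 32 tested genes that rose and 0 that fell (background, 2.29% and 1.31%). The list has 45 members, and the filter on low values can admit a gene through a treated group in which it is high. TNFRSF9, with an untreated mean of 7.16, passed it only in that way. The list's medians were 0.90 and 0.57. NF-kB dimers contain RELA or RELB, and inhibitors such as NFKBIA and TNFAIP3 are among their own targets. RELB was at 112, 115 and 113 without treatment and 391 and 348 with pyrimethamine (1.69 ± 0.20, adjusted p = 0.0115), while RELA was at a mean of 1833 against 1738 and 1465. TNFAIP3 was at 53.4 against 308 and 95.7 (adjusted p = 0.0801) and NFKBIA at 585 against 441 and 692. BIRC3, an inhibitor of apoptosis, was at 23.0, 29.6 and 13.5 against 142 and 66.9 (2.16 ± 0.42, adjusted p = 0.0348). TNFRSF9, the costimulatory receptor 4-1BB, was low throughout, at 5.51, 4.56 and 11.4 against 54.8 and 38.1 (2.61 ± 0.45, adjusted p = 0.0239). PTGS2, the inducible cyclooxygenase, was at 293, 314 and 309 against 588 and 610 (0.97 ± 0.18, adjusted p = 0.0292). IL1B was at a mean of 52.4 against 110 and 177 (1.40 ± 0.26, adjusted p = 0.0304). The groups did not overlap in any of these 5 called genes. CXCL8 was much higher in replicate 2, at 289 against 429 and 2019, and ICAM1 higher in replicate 1 only, at 17.2 against 63.4 and 11.3. None of the 6 calls was kept without an untreated library.

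The NF-kB motif was GGG, any 2 bases (NN) and TTTCC on either strand. It was found in 9 of 24 promoters of that list (37.5%) and in 2 of 4 called members with a promoter. The share was 1.92% of all 27305 promoters and 2.15% of those of tested genes. The promoters of the 2 called members are printed as above, with the motif in capitals. TNFRSF9 lies at chr1:7940840-7941089 on the minus strand, with the match beginning 74 bases before the start. BIRC3 lies at chr11:102317234-102317483 on the plus strand, with a match on the opposite strand beginning 199 bases before the start.
TNFRSF9: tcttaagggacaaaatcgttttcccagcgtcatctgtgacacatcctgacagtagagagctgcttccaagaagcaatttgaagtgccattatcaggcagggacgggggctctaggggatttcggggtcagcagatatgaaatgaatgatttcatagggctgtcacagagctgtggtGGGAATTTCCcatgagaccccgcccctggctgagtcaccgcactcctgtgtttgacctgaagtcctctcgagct
BIRC3: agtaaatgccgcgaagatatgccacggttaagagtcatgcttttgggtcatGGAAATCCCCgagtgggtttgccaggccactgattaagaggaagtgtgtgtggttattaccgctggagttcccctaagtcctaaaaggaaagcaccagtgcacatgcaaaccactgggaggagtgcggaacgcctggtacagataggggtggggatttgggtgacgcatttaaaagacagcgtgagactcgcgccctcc
NRF2's motif TGACNNNGC was in 8 of 34 promoters of NRF2 targets (23.5%), against 13.6% of all and 15.1% of those of tested genes. It was in 0 of the 4 called members with a promoter. The sterol motif TCACNCCAC was in 1 of 21 cholesterol promoters (4.76%), against 1.15% of all and 1.03% of those of tested genes. It was in 0 of 17 fatty acid promoters. No match says only that these letters are not in this window.

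STAT3, of which pyrimethamine has been called an inhibitor, was at 698, 687 and 726 without treatment and at 1181 and 583 with pyrimethamine, on either side. Of its 18 tested targets 0 passed by limma or edgeR, and DESeq2 called 1 higher and 1 lower (6.76% and 4.57% of all tested genes). SOCS3, the feedback inhibitor, was at 193, 200 and 168 against 239 and 272, above in both (adjusted p = 0.232). SOCS1 was at 38.6, 27.4 and 43.5 against 58.2 and 109 (adjusted p = 0.113), and VEGFA below in both, at 812, 870 and 815 against 626 and 515 (adjusted p = 0.11).

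AP-1 and immediate early genes respond quickly to growth factors and stress. Of 21 tested, 5 rose and 0 fell (background, 2.29% and 1.31%). The list has 23 members, and NR4A3 passed the filter on low values only through a treated group. Beside FOSB, JUN was at 504, 533 and 462 without treatment and 2026 and 1154 with pyrimethamine (1.61 ± 0.26, adjusted p = 0.0207). NR4A3, an orphan nuclear receptor, was at 2.76, 5.32 and 7.26 against 69.1 and 38.1 (3.17 ± 0.54, adjusted p = 0.0235), and KLF4 at 194, 226 and 256 against 698 and 430 (1.29 ± 0.27, adjusted p = 0.0429). Replicate 1 was the higher library in all 4 and both were clear of the untreated range; ATF3 was higher in replicate 2. FOS itself was at 19.1 against 28.0 and 19.5. EGR1 ran the other way, at a mean of 541 against 369 and 217 (-0.93 ± 0.26, adjusted p = 0.09). MYC was at 1868, 1977 and 1778 against 1840 and 1282 (adjusted p = 0.497). Without untreated replicate 3 the FOSB call was kept, and 0 of the 5 without replicate 1 or 2.

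Feedback genes of the ERK kinase pathway had 5 of 19 tested that rose and 0 that fell (background, 2.29% and 1.31%). The list's medians were 0.65 and 0.77. DUSP4, DUSP5 and DUSP6 are phosphatases that switch ERK off. DUSP5 was at 216, 236 and 216 without treatment and 577 and 609 with pyrimethamine (1.41 ± 0.16, adjusted p = 0.0115). DUSP4 was at 171, 235 and 198 against 556 and 576 (1.499 ± 0.19, adjusted p = 0.0122), and DUSP6 at 241, 266 and 288 against 448 and 567 (0.93 ± 0.18, adjusted p = 0.0346). In these genes the treated libraries lay close together and above all untreated ones. SPRY2, another brake on the pathway, rose by 1.09 ± 0.22 (adjusted p = 0.0388) and PHLDA2 from 49.6, 69.9 and 39.4 to 184 and 235 (1.99 ± 0.27, adjusted p = 0.0148). CCND1, cyclin D1, was not among them, at 5774 against 5168 and 2368 (adjusted p = 0.295). None of the 5 calls was kept without an untreated library, and 3, 2 and 3 without mitoxantrone replicate 1, 2 or 3.

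Of 13 tested genes of EGF receptor signalling, 4 rose and 0 fell (background, 2.29% and 1.31%), and 3 of the 4 encode ligands. HBEGF was at 33.1, 31.9 and 23.8 without treatment and 140 and 99.8 with pyrimethamine (1.98 ± 0.27, adjusted p = 0.0148). AREG was at 952, 952 and 915 against 1932 and 2711 (1.28 ± 0.19, adjusted p = 0.0182), and TGFA at 1278, 1314 and 1371 against 2281 and 3128 (1.02 ± 0.18, adjusted p = 0.0276). Of 7 tested ligands 4, these 3 included, lay above every untreated library in both treated ones (15.8% of all tested genes). ERRFI1, an inhibitor of the receptor, rose from 680, 705 and 733 to 1163 and 1774 (1.02 ± 0.21, adjusted p = 0.038). EGFR was at a mean of 3774 against 5768 in replicate 1 and 1243 in replicate 2, and ERBB2 at 807 against 1044 and 424, on either side and not called. Again 0 of the 4 calls was kept without an untreated library.

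The basal genes of squamous epithelium included 1 of 17 that fell and 0 that rose (background, 1.31% and 2.29%). SOX2, a transcription factor amplified in many squamous carcinomas, was at 3092, 3154 and 3169 without treatment and 1899 and 1001 with pyrimethamine (-1.19 ± 0.25, adjusted p = 0.0448, and 0.072 by edgeR), and no fit without an untreated library kept the call. TP63, the master regulator of the lineage, was at 3414, 3323 and 3311 against 3166 and 2030, below in both and not called (adjusted p = 0.346). KRT5 was at a mean of 81811 against 53000 and 48938 (adjusted p = 0.314). Among the genes that anchor the cells to the basement membrane, LAMA3, LAMB3 and COL17A1 differed by 3.08, 1.06 and 1.21 on the log2 scale in replicate 1 and by 0.45, -0.36 and -1.14 in replicate 2; none passed.

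Of 67 squamous differentiation genes, 39 passed the filter on low values. Of these, 9 rose and 2 fell (background, 2.29% and 1.31%). The medians of the 39 were 0.75 and 0.46, the latter 0.30 without the length trend. The filter can admit a gene through the group in which it is high. In the group of proteases, inhibitors and lipid barrier genes, LIPH was joined by KLK5, a kallikrein that sheds corneocytes, at 42.3, 49.4 and 40.4 without treatment and 126 and 194 with pyrimethamine (1.81 ± 0.24, adjusted p = 0.0128). SPINK6, a kallikrein inhibitor, was at a mean of 9.35 against 50.2 and 167, ALOXE3, a barrier lipoxygenase, at 47.0 against 223 and 108, and TMPRSS11E, a serine protease, at 48.6 against 91.3 and 147. All 3 rose, at adjusted p of 0.0211, 0.0379 and 0.0412. OVOL1, a transcription factor of differentiation, rose from a mean of 4.79 to 24.5 and 26.7. ECM1, an extracellular matrix protein of upper layers, was at 121, 132 and 139 against 538 and 351 (1.73 ± 0.24, adjusted p = 0.0156). KRT4, a keratin of the suprabasal esophagus, rose from 22.1, 22.0 and 12.4 to 77.1 and 65.8 (1.91 ± 0.31, adjusted p = 0.0208). Its partner KRT13 did the opposite and fell from a mean of 3037 to 1309 and 1724 (-1.01 ± 0.18, adjusted p = 0.0251). LOR, loricrin of the cornified envelope, fell from a mean of 24.0 to 0 and 2.06 (adjusted p = 0.034). KRT1 was at a mean of 103 ± 57.6 (SD, n = 3) without treatment and at 0 in both treated libraries, and did not pass (adjusted p = 0.0698). Of the 11 calls, that on LIPH alone was kept without each untreated library.

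**Figure D5:**
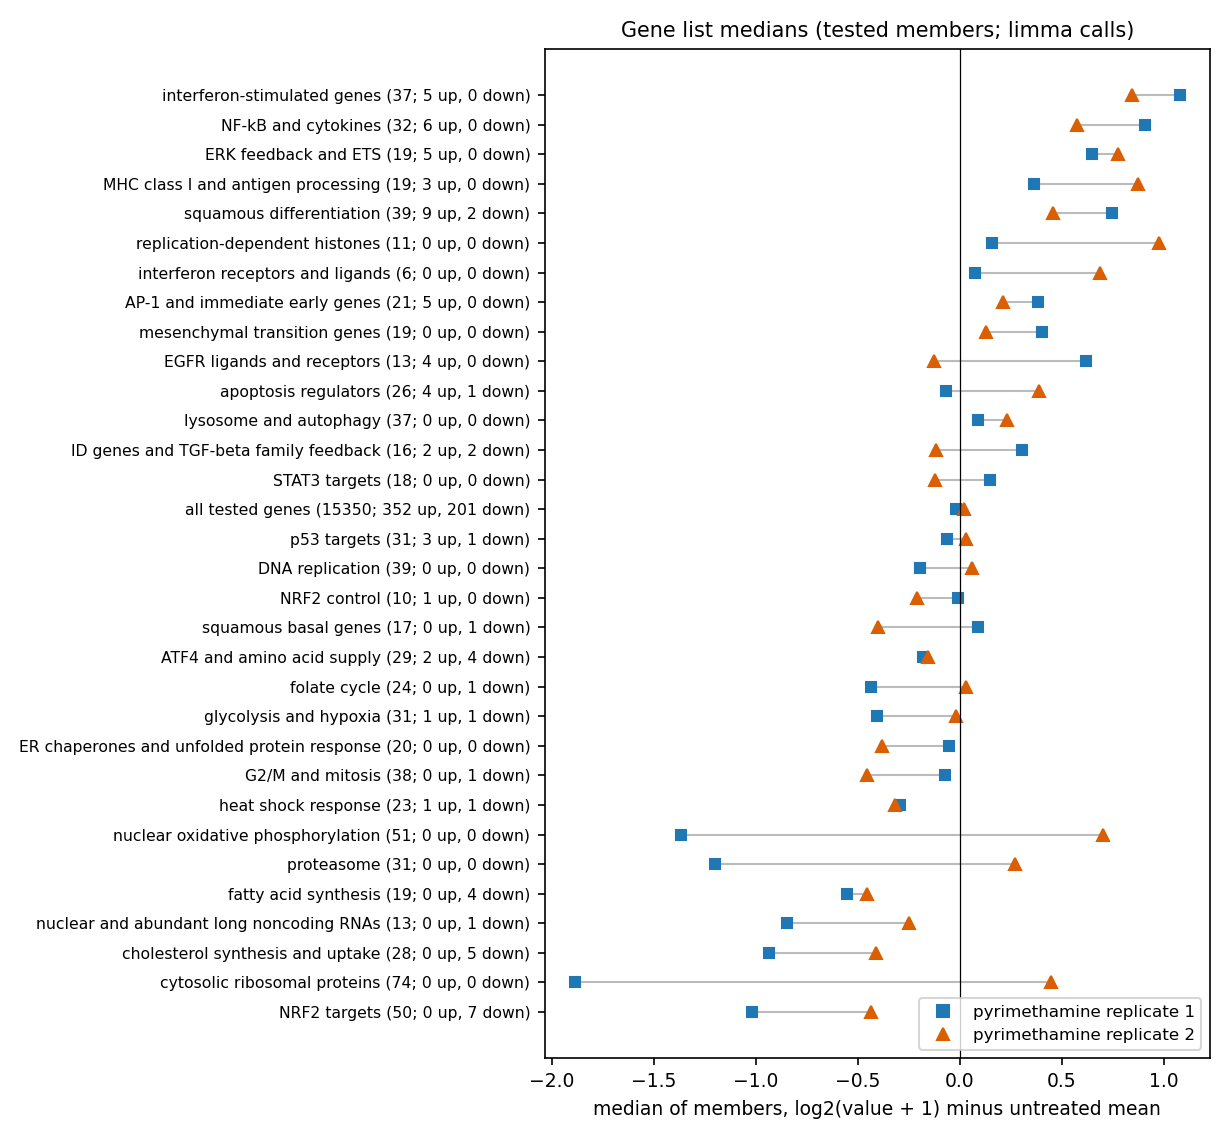
Median log2 difference from the untreated mean of the tested members of each gene list (horizontal axis) in pyrimethamine replicates 1 and 2, a marker for each. The replicates lie on the same side for NRF2 targets, lipid, interferon-stimulated and NF-kB lists and on opposite sides for ribosomal proteins (-1.89 and 0.45) and oxidative phosphorylation (-1.37 and 0.70).

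ID proteins block basic helix-loop-helix factors and are targets of BMP signalling. ID3 was at 9676, 9491 and 8742 without treatment and 1285 and 3996 with pyrimethamine (-2.04 ± 0.41, adjusted p = 0.0379), and ID4 at 606, 630 and 645 against 154 and 283 (-1.58 ± 0.26, adjusted p = 0.0207). Both fell, and ID1 and ID2 were below the untreated range in both libraries at adjusted p of 0.0712 and 0.179. In the same list of 16 genes ANKRD1 and CCN2 rose, the latter from 51.5, 48.6 and 56.0 to 122 and 131 (1.26 ± 0.22, adjusted p = 0.0268). Of the 16, 2 rose and 2 fell (background, 2.29% and 1.31%). CCN1, also a YAP target, was at 1922 against 3017 and 2563 (adjusted p = 0.133). Of the 4 calls 0 was kept in fits without an untreated library. Of 19 tested mesenchymal transition genes 0 passed by limma or edgeR, and DESeq2 called 1 higher (6.76% of all tested genes). PLAUR was at 222, 214 and 240 against 396 and 306 (limma, adjusted p = 0.153).

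Among 31 tested p53 targets 3 rose and 1 fell (background, 2.29% and 1.31%). TP53I3, a quinone oxidoreductase, was at 210, 212 and 204 without treatment and 740 and 1101 with pyrimethamine (2.11 ± 0.22, adjusted p = 0.00977). GDF15, a stress cytokine, was at 500, 683 and 580 against 1301 and 1235 (1.1199 ± 0.18, adjusted p = 0.0208). The best known targets did not follow: CDKN1A was at 3366, 3307 and 3214 against 2763 and 4418, on either side, and MDM2 at 2938, 2895 and 3027 against 1618 and 2149, below in both (adjusted p = 0.086). TP53INP1 fell from 492, 446 and 481 to 222 and 272 (-0.94 ± 0.17, adjusted p = 0.0276). FAS, a death receptor, rose from 23.0, 11.4 and 10.4 to 43.4 and 85.4 (2.04 ± 0.41, adjusted p = 0.0384). It belonged with the death receptor group, where CASP10 rose from 25.7, 13.7 and 15.6 to 59.4 and 77.1 and CFLAR from 32.2, 59.3 and 46.7 to 110 and 151, while TNFRSF1A fell from a mean of 2626 to 1407 and 1610. Adjusted p for these 3 was 0.0292, 0.0368 and 0.0434. Of 15 tested BCL2 family genes 0 passed by limma. None of the p53 or apoptosis calls was kept without an untreated library.

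Of 38 tested genes of G2/M and mitosis 1 fell and 0 rose (background, 1.31% and 2.29%). PLK1, the mitotic kinase, was at 4639, 4527 and 4822 without treatment and 1936 and 2508 with pyrimethamine (-1.08 ± 0.19, adjusted p = 0.0239, not called without any of the untreated libraries). Of the 38, DESeq2 called 3 lower (4.57% of all tested genes). In both treated libraries 10 lay below every untreated one and 0 above (16.9% and 15.8% of all tested genes). Another 5 were opposite. KIF4A, CENPE, CENPF, TOP2A and ASPM, all longer than the median of 3525 bases, were at least 2-fold higher in replicate 1 and lower in replicate 2, with CENPF at a mean of 844 against 2782 and 203. CCNB1 and BIRC5, with shorter transcripts, were lower in replicate 1, by 1.61 and 1.96, and near the untreated mean in replicate 2, at -0.15 and 0.12. Of 39 replication genes 0 passed by limma or edgeR, and DESeq2 called 2 higher and 3 lower (6.76% and 4.57% of all tested genes). The helicase subunits MCM7 and MCM6 were below the untreated range in both libraries, at limma adjusted p of 0.0526 and 0.0664.

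Several lists with transcripts shorter than the median had opposite medians in the treated libraries. The 74 cytosolic ribosomal protein genes had a median of -1.89 in replicate 1 and 0.45 in replicate 2, and 0 passed by limma, edgeR or DESeq2. RPL5 was at 20914, 20542 and 20628 without treatment, 5893 in replicate 1 and 22108 in replicate 2. Many of these genes have processed pseudogenes. The 51 nuclear genes of oxidative phosphorylation had medians of -1.37 and 0.70, and NDUFS6, of complex I, was at 3288, 3739 and 3359 against 1321 and 3525. The 31 proteasome genes had medians of -1.20 and 0.27, the latter negative once the length trend was removed. With that trend removed, the ribosomal medians were -1.47 and 0.09 and those of oxidative phosphorylation -0.91 and 0.30.

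Among single genes with the largest opposite differences, KIF15, a mitotic kinesin, was at 105, 117 and 111 without treatment, 444 in replicate 1 and 26.7 in replicate 2. KTN1 and GOLGB1, membrane proteins of the endoplasmic reticulum and Golgi, were at 1510, 2261 and 1735 against 7528 and 463 and at 189, 267 and 248 against 836 and 60.7. CASP8AP2, needed for histone gene expression, was at 51.5, 72.9 and 60.1 against 380 and 14.4. These genes are longer than the median of 3525 bases. The reverse order was seen in RPS27L, a ribosomal protein paralog induced by p53, at 1648, 1634 and 1568 against 714 and 3589. Its annotated length is 6434 bases, also above that median. NDUFA1, of complex I (766 bases), was at 2043, 1999 and 1554 against 743 and 4050. RAB5IF (1170 bases) was at 824, 887 and 846 against 308 and 1872, and the histone gene H2AW (895 bases) at 426, 372 and 409 against 131 and 917. Means of such genes describe neither library. PKD1P3-NPIPA1, a readthrough of a duplicated region, was at 71.7, 101 and 75.7 against 381 and 11.3, a count that its paralogs can share.

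Stress and metabolic lists held few calls (over all tested genes, 2.29% rose and 1.31% fell). In the heat shock list CRYAB, a small heat shock protein, rose from 909, 894 and 966 to 2562 and 4035 (1.80 ± 0.21, adjusted p = 0.0115). HSPA1B, which has the near-identical copy HSPA1A, fell from 2348, 2456 and 2325 to 1028 and 591 (-1.61 ± 0.26, adjusted p = 0.0207), and 11 of the 23 tested lay below the untreated range in both libraries and 2 above (16.9% and 15.8% of all tested genes). Of 20 tested genes of the unfolded protein response 0 passed by limma, edgeR or DESeq2, with HSPA5, the main chaperone of the endoplasmic reticulum, at 14731, 14806 and 13767 against 13128 and 7706. In glycolysis and hypoxia, SLC2A3, a glucose transporter, rose from 1425, 1305 and 1386 to 2266 and 2370 (0.76 ± 0.15, adjusted p = 0.0399) and ADM fell from 1260, 1199 and 1209 to 570 and 799 (-0.86 ± 0.19, adjusted p = 0.0479). Of the 31 tested genes of that list 10 lay below every untreated library in both treated ones and 3 above. LDHA, lactate dehydrogenase, was at a mean of 53735 against 14341 and 49839, the lower value in replicate 1. Of 37 lysosome genes 0 passed by limma or edgeR, and DESeq2 called 4 higher (6.76% of all tested genes). NEU1, a sialidase, was at 1186, 1126 and 1138 against 1652 and 4420. None of the 4 calls in this paragraph was kept without an untreated library.

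Of 13 tested noncoding RNAs 1 fell and 0 rose (background, 1.31% and 2.29%). MIR205HG, the host transcript of a squamous microRNA, fell from 720, 707 and 836 to 176 and 329 (-1.64 ± 0.26, adjusted p = 0.0207, not called without any of the untreated libraries). The nuclear RNAs MALAT1 and NEAT1 were opposite in the treated libraries, at 227 against 786 and 99.8 and at 482 against 1173 and 72.0. Of the 8 tested simple epithelial and glandular markers 1 rose and 0 fell (background, 2.29% and 1.31%). MUC1, a membrane mucin, rose from 4.60, 9.88 and 6.22 to 46.8 and 39.1. It passed the filter on low values only through a treated group. Its log2 fold change was 2.53 ± 0.44 (limma, adjusted p = 0.0257), and fits without an untreated library did not call it. Of 11 tested histone genes, whose copies are near-identical, 0 passed by limma or edgeR. Of the marker genes of other cell types, VWF was at 68.9, 92.7 and 91.2 against 340 and 175, COL1A1 at 981, 890 and 935 against 1788 and 1254, and CD68 at 55.1, 52.4 and 62.2 against 117 and 97.7. Each was above its untreated range in both libraries and none passed (adjusted p = 0.0908, 0.18 and 0.0845). Other members of these lists differed, and 3 of 7 tested fibroblast markers lay above in both (15.8% of all tested genes). COL5A1 and POSTN were above the untreated range in replicate 1, at 866 and 227, and below it in replicate 2, at 365 and 81.3. COL1A2, LUM and DCN were above it in replicate 2 only, at 213, 38.1 and 27.8.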

How the data were processed

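RNA of 3 untreated libraries, 2 given 10 µM pyrimethamine and 3 given 20 nM mitoxantrone for 72 h was sequenced, and the submitters' processing notes name STAR 2.6.90c, featureCounts 1.5.1, FastQC 0.11.5 and cutadapt 1.12, with hg38 as the build. Not given in the sources used here are the gene annotation, the strandedness and the handling of multi-mapping reads. The deposited table holds a normalised signal, gene counts that the authors divided by size factors; 0 columns belong to other samples. Within a tolerance of 0.1 read, 100% of values in each library were whole reads, 17555689 to 24774358 a library.

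Genes with a mean of at least 10 were tested with limma 3.58.1 (R 4.3.3; eBayes with a trend; two-sided) on log2(value + 1), which understates changes of low genes, with group as the single term, 8 libraries and 5 residual degrees of freedom. Benjamini-Hochberg adjusted p ran over all 15350 genes. A single spread per gene is assumed for the 3 groups, but the treated pair was further apart than the other replicates. On the recovered reads edgeR 4.0.16 called 483 genes higher and 187 lower and DESeq2 1.42.0 called 1037 and 701. The median SE was 0.335 log2 units. On simulated data of 15350 genes the fit recovered 2.99% of 1.5-fold, 5.97% of 2-fold and 75.8% of 4-fold changes and made 3 false calls. The simulated libraries all shared the same spread at a given expression level. They had no length trend, no wider treated pair and no mitoxantrone effect. The rates therefore hold for that setting and cannot be carried over to these libraries.

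The members, 36 gene lists and tests were chosen with earlier results of these data known. Named genes are a preset list of regulators and targets, the 12 highest and 12 lowest fold changes, up to 6 genes for each opposite pattern and up to 4 members of each list by smallest p; further list members were named after their values were seen, and some that the rule selects are left out. Lengths, positions and strands came from GENCODE 29 on GRCh38 and covered 90.7% of tested genes. Deviations of same-numbered libraries from their group means, by the numbers in the titles, correlated at -0.29 to 0.13. Pyrimethamine replicate 2 carries the number 3 in its column name. It correlated at 0.03 with untreated replicate 3 and at -0.41 with mitoxantrone replicate 3. Deviations of 2 libraries from their own mean mirror each other, so these values cannot decide a pairing. The numbers were not taken to pair the libraries. Alternatives were other scalings, filters, pseudocounts, the 5 libraries alone, library weights, a replicate block, removal of the length trend and leaving out each library.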

Additional observations from a re-analysis of the deposited data

How the results depend on the processing

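Counts of called genes depended on the fit, given as higher and lower. DESeq2 called 1037 and 701, the table with no filter on low values 198 and 93, quantile normalisation 223 and 99, and the fit with the transcript length trend removed 667 and 441. The 5 libraries alone, library weights with 1 variance for each group and a replicate block gave 0 and 0, with 2077, 493 and 2084 genes at an unadjusted p under 0.05. The numbers were not taken to pair the samples. A block with pyrimethamine replicate 2 under number 3, as in its column name, was chosen after seeing the data and also gave 0 and 0, with 2027 at that p. The cause of these losses was not tested. Leaving out a library gave 9 to 3777 higher and 1 to 4538 lower; the highest counts came from fits with a lone pyrimethamine library, assumed to vary like the other groups. The other settings stayed within 1.5 times of the counts.

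Genes at least 2-fold higher in both libraries numbered 258 at a mean of at least 50, 1557 with no filter, 449 with a pseudocount of 5 and 421 after quantile normalisation. Those lower in both numbered 80 and 308 under the first and second of these, and opposite genes 217 at a mean of at least 50 and 213 without the length trend. Upper-quartile scaling moved the median of all tested genes in replicate 1 from -0.02 to 0.15.

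Of 127 named genes in 23 settings 0 of the 79 called ones reversed. Sign reversals of the log2 fold change were KEAP1 at 0.077 (quantile) and 0.038 (upper quartile), TYMS at 0.33 (quantile) and HSPA5 at 0.040 (quantile). Leaving out a library, the extremes coming from the fits without a pyrimethamine library, gave KEAP1 -0.17 to 0.0029, NQO1 -1.63 to 0.075, TYMS -0.79 to 0.36, MTHFD2 -0.29 to 0.69, SLC19A1 -0.59 to 0.045, STAT3 -0.27 to 0.75, CDKN1A -0.25 to 0.42, RPS15A -2.47 to 0.11, RPL5 -1.81 to 0.095 and NDUFS6 -1.39 to 0.028. In simulated data without the divergence of the treated pair the test missed most 2-fold and found most 4-fold changes. Sizes between were not simulated.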

Other observations

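Ligands of NKG2D, the activating receptor by which natural killer cells recognise stressed cells, were looked at after their values were seen. Of 8 tested, 4 rose and 0 fell, beside 2.29% and 1.31% of all tested genes. MICB was at a mean of 248 ± 17.6 normalised reads (SD, n = 3) without treatment and at 594 and 918 with pyrimethamine, a log2 fold change of 1.58 ± 0.21 (limma, adjusted p = 0.0127). ULBP2 was at 50.9 against 225 and 271 (2.26 ± 0.25, adjusted p = 0.0115), RAET1L at 78.4 against 325 and 370 (2.13 ± 0.22, adjusted p = 0.00977) and RAET1G at 11.99 against 65.7 and 91.5 (2.64 ± 0.32, adjusted p = 0.0115). ULBP2, RAET1G and RAET1L are close paralogs that can share reads. Both treated libraries lay above every untreated one in all 4 genes. The others did not share this: MICA was at 82.4 against 85.6 and 98.7, and ULBP1 and ULBP3 were higher in replicate 1 and lower in replicate 2. Without untreated replicate 1, 2 or 3, 0, 0 and 1 of the 4 calls were kept.

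Inflammasome and pyroptosis genes were also chosen after their values were seen. Of 8 tested, NLRP1, CASP1 and IL1B rose (background, 2.29%). CASP1, the protease that matures interleukin 1 beta, was at a mean of 128 ± 11.2 (SD, n = 3) without treatment and at 407 and 610 with pyrimethamine (1.95 ± 0.22, adjusted p = 0.0115). IL18, another substrate of CASP1, was at 3724 against 3054 in replicate 1 and 11640 in replicate 2, and CASP4 was at 413 against 450 and 713; neither passed. None of the 3 calls was kept without an untreated library.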
